A study of Mus musculus with 2 samples.

Results

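The 8 genes described here code for the interleukin-1 family cytokines and receptors Il1a, Il1b, Il1rn, Il18, Il1r2, Il1rap, Il18r1 and Il18rap, and they were taken by name from the 16184 gene columns of the deposited tables. They were followed across blood cell lineages set by single marker genes, in CD45+ cells from lungs whose club cells had been depleted and from control lungs. All mice were Scgb1a1cre /iDTR animals, in which Cre under the club cell gene Scgb1a1 opens a diphtheria toxin receptor, and all carried lung tumours grown from HKP1 cells, a mouse lung adenocarcinoma line given by tail vein. Both groups of 4 mice were given tamoxifen (2 mg/20 g, 5 daily doses, days 3 to 7), 250 µg of anti-PD-1 antibody on day 6, and lung irradiation with 4 Gy on each of 3 days (days 10 to 12). The DT group was injected with diphtheria toxin (2 doses of 600 ng/20 g, days 8 and 9) to remove club cells, and the PBS group is named as its control. The treatment text of the labels is the same for both libraries and lists the toxin, so the groups rest on the library titles. Live CD45+ cells were sorted 24 to 48 h after irradiation and 1 droplet 3′ library was made per group, so there is no replicate, no test and no p-value below. How the 4 mice of a group entered its library is not given in the labels, nor are the ages of the mice. Neither group lacked tumour, radiation or checkpoint antibody.

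Interleukin-1 alpha and beta, the products of Il1a and Il1b, signal through the receptor Il1r1 with its partner chain Il1rap and turn on NF-kB target genes. The antagonist coded by Il1rn occupies the same receptor without signalling, and Il1r2 is a decoy receptor that binds interleukin-1 but has no signalling domain. Interleukin-18, from Il18, signals through Il18r1 and Il18rap and drives interferon-gamma release by NK and T cells. Interleukin-1 beta and interleukin-18 are made as inactive precursors that caspase-1 cuts in the inflammasome, so a transcript level is not a level of active cytokine.

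Il1b was the ligand with the most counts here, and Il18 was lower in DT in cells marked by Csf1r or Cd79a. The Csf1r difference was not shared by all subsets and was not called in male cells. The Cd79a difference rested on few UMIs. Neutrophils carried Il18rap with little of its neighbour Il18r1. The bases just before the transcription start are shown for Il1b, Il18 and Il18rap. They are RefSeq sequences of build GRCm38.p6, 250 bases each, written 5′ to 3′ along the gene's own strand. The Il1b bases are chr2:129371140-129371389 on the minus strand, those of Il18 are chr9:50554450-50554699 on the plus strand, and those of Il18rap are chr1:40515112-40515361 on the plus strand. Capitals mark matches, on either strand, to TATAAA (the TATA box), TTGNNNAA (a C/EBP-type motif) or GAGGAA (a PU.1 core).
Il1b: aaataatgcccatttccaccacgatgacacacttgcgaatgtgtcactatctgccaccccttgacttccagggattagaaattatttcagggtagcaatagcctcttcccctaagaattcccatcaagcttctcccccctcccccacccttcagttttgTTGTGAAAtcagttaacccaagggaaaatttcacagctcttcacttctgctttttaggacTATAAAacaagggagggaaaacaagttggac
Il18: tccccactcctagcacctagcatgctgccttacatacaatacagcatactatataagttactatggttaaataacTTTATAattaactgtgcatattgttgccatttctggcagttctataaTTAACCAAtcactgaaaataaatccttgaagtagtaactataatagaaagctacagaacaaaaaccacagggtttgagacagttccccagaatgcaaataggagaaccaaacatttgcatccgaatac
Il18rap: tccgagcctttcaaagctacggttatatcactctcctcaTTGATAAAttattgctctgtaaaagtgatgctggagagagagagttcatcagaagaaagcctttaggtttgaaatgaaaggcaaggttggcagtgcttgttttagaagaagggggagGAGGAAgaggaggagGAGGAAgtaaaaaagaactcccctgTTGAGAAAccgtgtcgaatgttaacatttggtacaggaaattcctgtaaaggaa

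The Il1b window holds a TATAAA match 31 to 26 bases before the start and 1 TTGNNNAA match. The Il18 window holds 1 match to each, both on the opposite strand, with the TATAAA match 175 to 170 bases before the start. The Il18rap window holds 2 matches to GAGGAA, 2 to TTGNNNAA and 0 to TATAAA. No window holds an NF-kB form (GGG and CC with any 5 bases between) or TGANTCA (an AP-1 form). Of 32817 RefSeq windows of the same length, 12.4% hold TATAAA, 33.4% TTGNNNAA, 23.3% GAGGAA, 45.8% the NF-kB form and 6.75% TGANTCA, so these matches are common and describe letters, not binding. The Il1b window lies within the span of Il1bos, annotated on the opposite strand, and the Il18 window within that of Bco2. Il1a and Il1b stand 54.4 kb apart on chromosome 2 and Il18r1 and Il18rap 14.5 kb apart on chromosome 1, each pair on 1 strand. Il1r2 lies 340 kb before Il18r1.

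The PBS library held 5702 cells and 31089434 UMIs (unique molecular identifiers, each standing for 1 captured transcript) and the DT library 6203 cells and 27896059 UMIs. After filtering, 5651 and 5896 cells remained, with medians of 3749 and 3052 UMIs, and 8 barcodes occurred in both libraries. Levels are given as CPM, the usual scale on which the UMIs of a gene are divided by all UMIs of the same cells, so that libraries of different depth can be compared. A cell with a UMI of both Csf3r and S100a8 entered the neutrophil gate, and Csf1r, Cd3e, Cd79a and Ncr1 set the Csf1r (monocyte and macrophage), T, B and NK gates. A cell had to pass exactly 1 gate, which left 559 PBS and 898 DT cells in the neutrophil gate (9.89% and 15.2% of cells), 813 and 815 in the Csf1r gate, 1069 and 1004 in the T gate, 1386 and 1065 in the B gate and 253 and 214 in the NK gate. The 8 neutrophil markers together gave a summed level of 122683 (PBS) and 101345 (DT) CPM in the neutrophil gate and at most 278 in the other gates, all 8 being detected in the neutrophil gate. The list includes the gate genes Csf3r and S100a8. Cells with both left the other gates, so the contrast is partly set by the gating. Club cell markers summed to 54.0 CPM in the PBS library and 10.9 in the DT library, where 2 of the 3 were at 0. The libraries differed in the sex of their cells: of cells that could be called from Xist or Y-linked UMIs, 87.2% were male in the PBS library and 31.9% in the DT library. Sex and toxin therefore cannot be told apart in whole-gate values, and values within each sex are given where, with at least 50 UMIs, they changed a call. This split was made for the 8 members in whole gates only. Subsets and other genes were not split by sex, so sex and toxin cannot be told apart there either.

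Interleukin-1 ligands, the antagonist and the decoy receptor were genes of the myeloid gates. Il18r1 was a gene of the NK and T gates, and Il18rap of the NK and neutrophil gates, with a lower level in T cells. The neutrophil gate held 42.7% of all Il1b UMIs in the PBS library and 45.4% in the DT library. Cells passing both the neutrophil and Csf1r gates held a further 32.3% and 30.1%, and the Csf1r gate 8.56% and 8.21%. Il1rn was spread more evenly, with 29.4% of its PBS UMIs in the Csf1r gate and 18.7% in the neutrophil gate, against 21.3% and 27.8% in the DT library. Il18 had its largest share in the Csf1r gate (53.5% and 43.0%), and Il18r1 in the T gate (48.3% and 51.6%). B cells serve as a background for shares of cells with a UMI, at medians of 2827 and 2425 UMIs per cell against 2173 and 2046 in neutrophils and 7515 and 6665 in Csf1r cells. Il1b was found in 8.51% and 10.7% of them, Il1rn in 1.01% and 1.60%, Il1r2 in 0.794% and 0.845%, and Il18 in 1.30% and 0.939%. Il1a, Il1rap, Il18r1 and Il18rap each had a UMI in at most 1.08% of B cells.

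**Figure D1:**
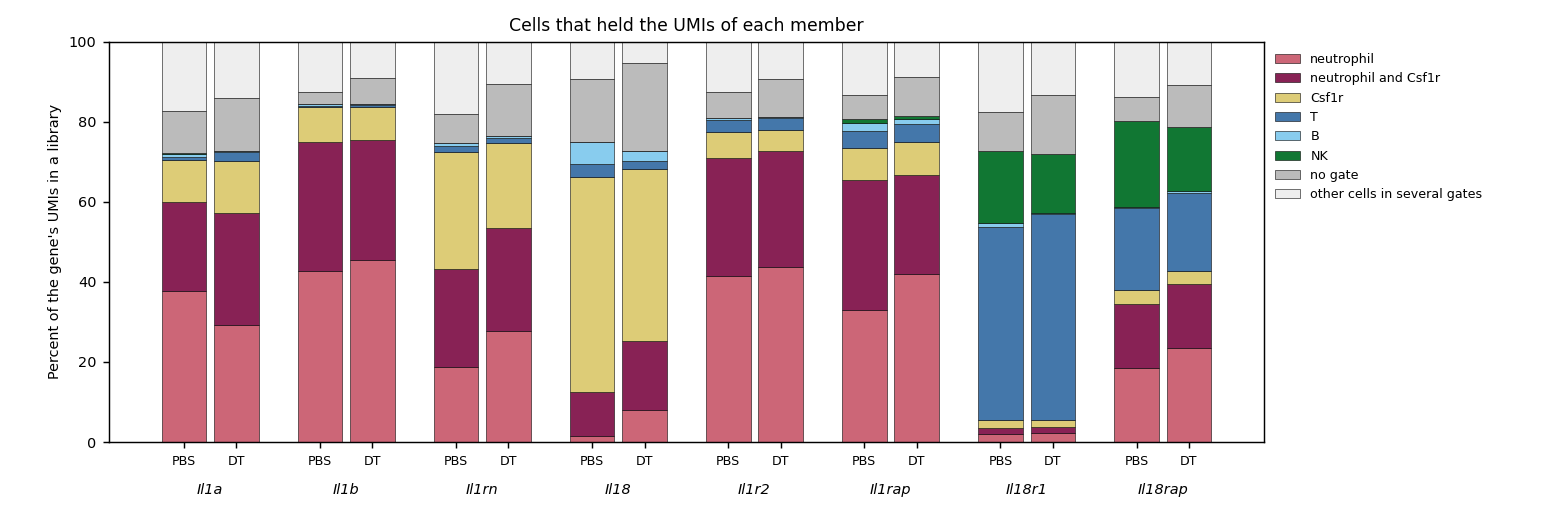
Share of each gene's UMIs (percent of the library's total for that gene, filtered cells) held by each gate, by cells passing only the neutrophil and Csf1r gates, by cells outside all gates and by other cells in several gates; 1 bar per library. Il1b, Il1r2 and Il1a are mostly in neutrophil-gated or double-gated cells, Il18 in the Csf1r gate and Il18r1 in the T gate.

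**Figure D2:**
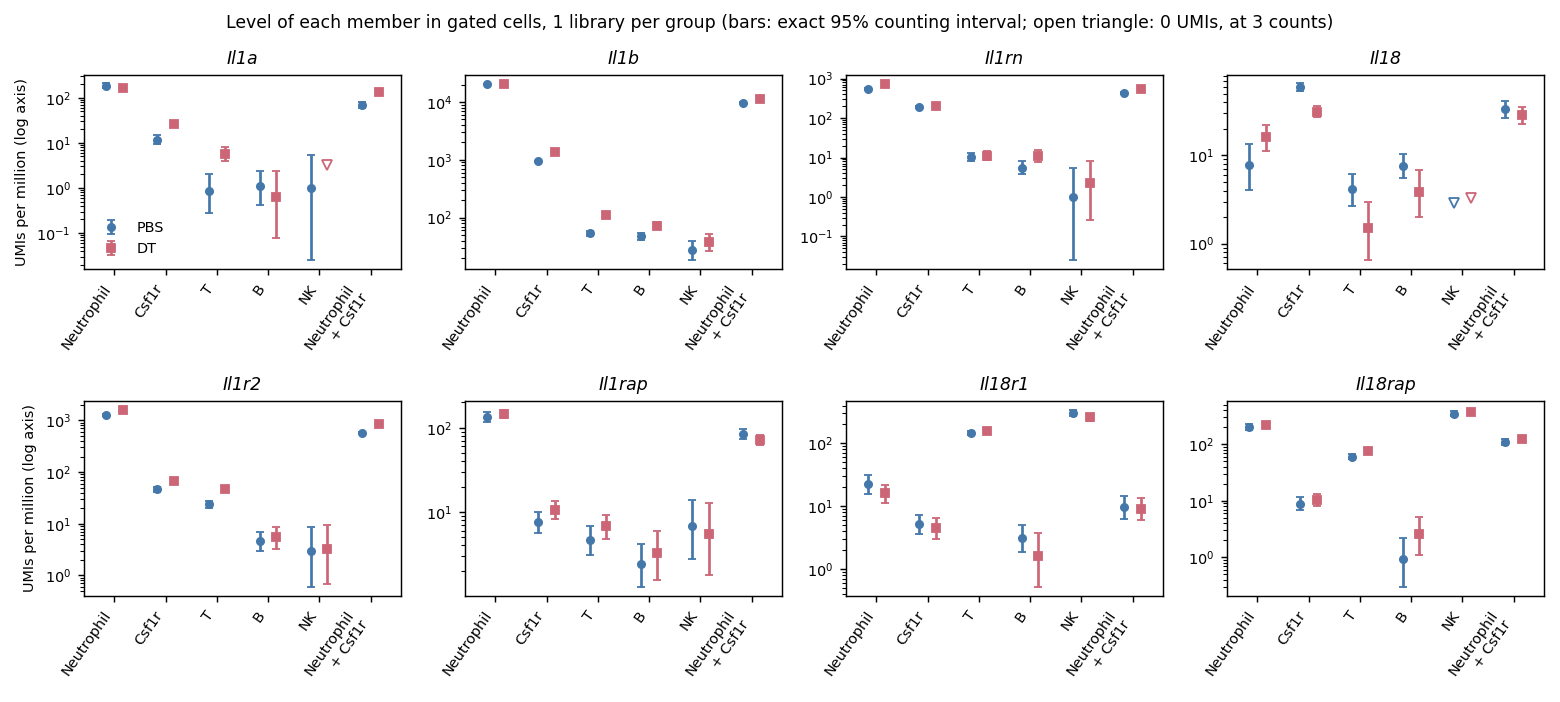
Level of each gene in CPM (log axis) in each gate and library, with exact 95% Poisson intervals that cover counting error only. Il1b spans from 20508 in the PBS neutrophil gate to 27.2 in the PBS NK gate, and Il18 was at 0 UMIs in the NK gate of both libraries (open triangles, drawn at 3 counts).

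Between the libraries, 5 of the 27 gene and gate pairs with at least 50 UMIs were at least 1.5-fold higher in DT with a 95% interval that left out 1, and 2 were at least 1.5-fold lower. No member met this in the neutrophil gate, where 7 of 8 had enough UMIs and where 4.8% of all genes tested were higher and 2.49% lower. This depended on the gate. With Csf3r alone as its marker, cells passing only it and the Csf1r gate were counted in it too, with or without S100a8. With that gate Il1a and Il1r2 were called higher. In male-called neutrophils of the main gate Il1a was called lower. In the Csf1r gate, Il1a was higher and Il18 lower, 1 of 8 in each direction, against 3.04% and 3.42% of all genes. In the T gate, Il1b and Il1r2 were higher, 2 of 6, against 3.79% of all genes, and 0 were lower against 1.25%. In the B gate, Il1b and Il1rn were higher and Il18 lower out of 3, against 7.98% and 3.02%, and Il1rn and Il18 there rested on few cells. In the NK gate, 0 of 3 were called, against 2.71% and 2.68%. The median log2 ratio of the members was 0.10 in the neutrophil gate, 0.36 in the Csf1r gate and 0.43 in the T gate, and that of all genes was 0.07, 0.02 and 0.05. Over all filtered cells, whatever their gate, Il1a, Il1b and Il1r2 were higher, 3 of 8, against 4.1% of all genes, and 0 were lower against 2.36%. The neutrophil gate, where Il1b and Il1r2 were densest, held a larger share of the DT cells. The part of this share in the values over all cells was not tested.

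**Figure D3:**
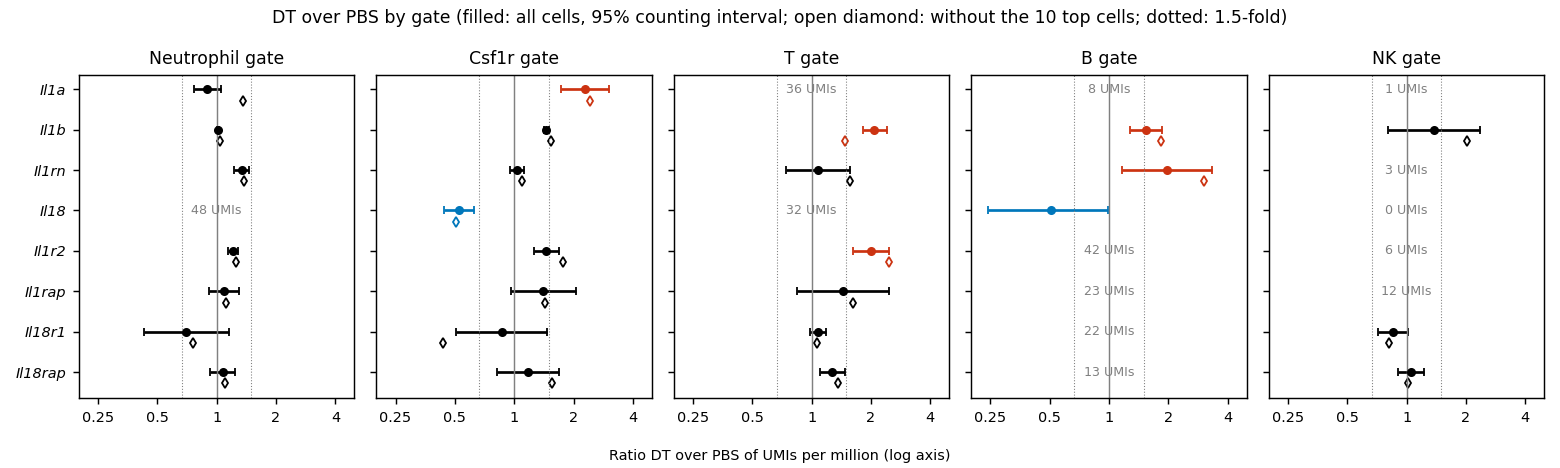
Ratio of DT over PBS CPM (log axis) for each gene in the 5 gates, with 95% conditional binomial intervals that cover counting error only; diamonds leave out the 10 cells with the most UMIs of the gene in each library, dotted lines mark 1.5-fold, and grey numbers are UMIs of pairs under 50. Red points are the 5 higher pairs and blue points the 2 lower ones.

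Il1b was at nearly the same level in the neutrophil gate of both libraries. It stood at 20508 CPM in PBS (95% Poisson interval 20282 to 20735) and 20805 in DT (20617 to 20994), a ratio of 1.01 (1.00 to 1.03). It was detected in 98.6% and 98.1% of these cells, at a mean of 56.4 and 52.2 UMIs per cell. The Siglecf+ neutrophils, a form described in lung tumours, had 18336 in PBS (45 cells) and 20978 in DT (100 cells) (ratio 1.14, 1.09 to 1.20). Ngp+ or Camp+ neutrophils, an immature pattern, had 16638 and 17904 in 25 and 39 cells, the lowest of the 3 subsets in both libraries. The remaining neutrophils had 20994 and 20971.

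Csf1r cells had Il1b at 937 CPM in PBS (914 to 960) and 1364 in DT (1335 to 1393), a ratio of 1.46 (1.41 to 1.5), just under 1.5-fold. The share of cells with an Il1b UMI was 52.9% and 61.5%, and 27.0% and 39.4% after each cell was thinned to 1000 UMIs. The subsets did not share 1 ratio. Cells with Treml4 or Ace, marks of nonclassical monocytes, had 767 and 1588 (ratio 2.07, 1.94 to 2.21; 299 and 155 cells). C1qa+ C1qb+ macrophages had 944 and 1178 (1.25, 1.18 to 1.32), and Ly6c2+ Ccr2+ cells, the pattern of classical monocytes, had 979 and 1101 (1.12, 1.03 to 1.22). The remaining Csf1r cells had the highest level of these subsets in both libraries, at 1287 and 1755 (1.36, 1.28 to 1.45).

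The Csf1r value moved with the sex of the cells. Male-called cells had 964 CPM in 396 PBS cells and 903 in 136 DT cells, a ratio of 0.936 (0.872 to 1.00). Female-called cells had 283 in only 63 PBS cells and 1258 in 364 DT cells, a ratio of 4.44 (3.70 to 5.36). Cells called male made up 86.3% of called cells in the PBS Csf1r gate and 27.2% in the DT gate. Among called cells, the DT neutrophil gate was mostly male, at 73.2% against 97.3% in PBS. Most neutrophils could not be called: 177 of 559 PBS and 145 of 898 DT cells were called male. The Il1b ratio of the neutrophil gate was 1.14 (1.11 to 1.17) in male-called cells. Only 5 PBS neutrophils were called female, and the female-called ratio was 0.621 (0.564 to 0.686).

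**Figure D4:**
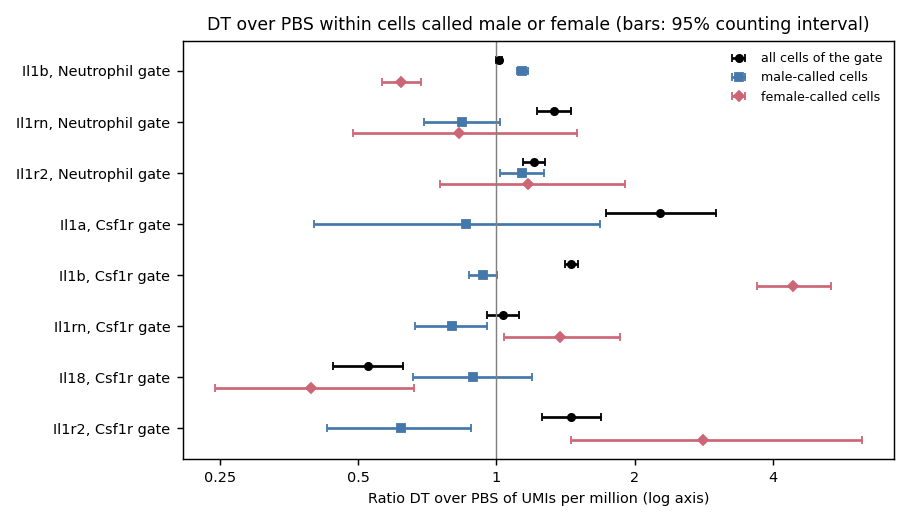
Ratio of DT over PBS CPM (log axis) for 8 gene and gate pairs, in all cells of the gate and in cells called male (a Y-linked UMI and no Xist) or female (the reverse), with 95% counting intervals. For Csf1r cells, Il1b, Il1rn and Il1r2 lie below 1 in male-called cells and above 1 in female-called cells; female-called Il1a is not drawn because the 63 PBS cells held 0 UMIs.

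Lymphocytes held little Il1b, and much of it sat in few cells. The T gate had 53.4 CPM in PBS (308 UMIs) and 111 in DT (596 UMIs), a ratio of 2.08 (1.81 to 2.40). The 10 T cells with the most held 48.4% and 63.6% of it, and without them the ratio was 1.47 (1.19 to 1.81). It was 1.10 (0.904 to 1.34) once the 6% of cells scored most doublet-like were left out and 1.23 (1.05 to 1.44) with Csf3r alone as the neutrophil gate, so each of these settings ended the call. The doublet scoring itself marked only 3 PBS and 0 DT cells, so the cells it ranked highest may not be doublets. Foxp3+ T cells, the regulatory kind, accounted for 28 PBS and 221 DT UMIs (38.5 and 273 CPM), and 97.7% of the DT UMIs lay in 10 of 124 cells. The share of Foxp3+ cells with an Il1b UMI was 14.7% and 12.1%. The B gate had 47.1 and 72.3 (1.53, 1.28 to 1.84), with 56.9% and 48.7% in 10 cells, and 1.83 (1.40 to 2.40) without them. That call was lost with overlapping gates (1.10), with at least 2 UMIs of each gate gene (1.18) and with trimmed mean (1.42) or median-of-ratios (1.44) scaling. Male-called B cells had 1.20 (0.883 to 1.60), and female-called ones 3 UMIs in PBS and 76 in DT. The NK gate had Il1b at 27.2 (18.1 to 39.4) and 37.4 (25.9 to 52.3). UMIs of S100a8 and S100a9 were present in these gates. Il1b per 1000 of them was 193 and 247 in neutrophils, 819 and 1443 in the T gate and 1339 and 1258 in the B gate. These values depend on the gating, because S100a8 is a gate gene and cells with it and Csf3r left the T and B gates. Whether free neutrophil RNA gave the Il1b of lymphocytes was not tested. Subtracting the library's mean profile at 10% of each gate's UMIs took away all PBS Il1b of the T, B and NK gates, so no ratio was left there.

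Il1a, whose product can act without cleavage, was highest of the 5 gates in neutrophils. The neutrophil gate had 185 CPM in PBS (165 to 208) and 166 in DT (150 to 184), a ratio of 0.897 (0.767 to 1.05), with 9.48% and 11.0% of cells positive. In PBS, 10 cells held 53.7% of the UMIs, and without the 10 top cells of each library the ratio was 1.36 (1.10 to 1.69). Male-called neutrophils had 132 and 66.5 (0.505, 0.313 to 0.792; 85 and 26 UMIs), past the limit for a lower call, and female-called ones held 2 and 18 UMIs. Siglecf+ neutrophils had 293 (214 to 390) and 345 (280 to 421), with 93.5% and 64.3% of it in 10 cells. Neutrophils thinned to 1000 UMIs with an Il1a UMI also carried Il1rn in 88.2% of cases in PBS (34 cells) and 70.1% in DT (67 cells), against 27.6% and 31.5% of the 496 and 788 neutrophils without Il1a. Agonist and antagonist transcripts were thus found in the same neutrophils.

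Csf1r cells had Il1a at 11.7 CPM in PBS (9.29 to 14.6; 79 UMIs) and 26.7 in DT (22.8 to 31.1; 166 UMIs). The ratio was 2.28 (1.73 to 3.01), and 2.44 (1.66 to 3.63) without the 10 top cells, which held 49.4% and 45.8%. Positive cells were 5.29% and 7.24%. Treml4+ or Ace+ cells had 6 and 25 UMIs, C1qa+ C1qb+ cells 34 and 55 (16.2 and 21.3 CPM), and the remaining cells 30 and 73 (24.9 and 50.3). Male-called cells had 11.8 and 10.1, a ratio of 0.860 (0.402 to 1.69), and female-called cells had 0 UMIs in 63 PBS cells and 83 in DT, at 24.6 CPM. The T gate held 5 and 31 UMIs, the B gate 6 and 2, and the NK gate 1 and 0.

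Il18 was the only member called lower in DT, in the Csf1r and B gates. Over all cells it had a ratio of 0.675 (0.599 to 0.760), just short of a lower call. In the Csf1r gate it had 59.4 CPM in PBS (53.7 to 65.5; 400 UMIs) and 31.2 in DT (27.0 to 35.9; 194 UMIs), a ratio of 0.525 (0.440 to 0.625). The value without the 10 top cells was 0.509, and it was 0.646 (0.405 to 1.02) with cells thinned to 1000 UMIs, which ended the call. Cells with a UMI made up 20.3% and 15%. The difference was not shared by all subsets. The remaining Csf1r cells had 126 (107 to 148) and 29.0 (20.9 to 39.1), a ratio of 0.230 (0.159 to 0.325), with 63.2% and 69.0% of it in 10 cells. Treml4+ or Ace+ cells had 44.0 and 47.2 (1.07, 0.751 to 1.51), Ly6c2+ Ccr2+ cells 36.1 and 42.9 (1.19, 0.752 to 1.88), and C1qa+ C1qb+ cells 19.1 and 13.9 (0.730, 0.452 to 1.17). The highest level was in Marco+ Chil3+ cells, the pattern of alveolar macrophages, at 486 (380 to 612) in 17 PBS cells and 257 (159 to 393) in 7 DT cells.

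Splitting the Csf1r gate by Chil3 without Ly6c2, a split made after these values were seen, gave 245 of the 400 PBS UMIs and 94 of the 194 DT UMIs of Il18 to the positive cells. They had 139 CPM in PBS (122 to 157; 213 cells) and 48.9 in DT (39.5 to 59.8; 243 cells), and all other Csf1r cells had 31.2 and 23.3, a ratio of 0.746 (0.575 to 0.966). Male-called Csf1r cells had 59.9 and 53.4 (0.892, 0.657 to 1.19) and female-called cells 53.9 and 21.3 (0.395, 0.244 to 0.663). Alveolar type 2 cell markers, all 4 detected, summed to 16.8 CPM in the PBS Csf1r gate and 620 in the DT gate. Their part in the Il18 values was not tested.

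In the other 4 gates Il18 rested on at most 41 UMIs per library. Neutrophils held 12 and 36 UMIs (7.81 and 16 CPM) and T cells 24 and 8. The B gate had 41 UMIs in PBS and 12 in DT (7.63 and 3.87 CPM; ratio 0.507, 0.243 to 0.984), with 80.5% of the PBS UMIs and all of the DT UMIs in 10 cells. NK cells had 0 UMIs in both libraries, which allows up to 2.92 (PBS) and 3.30 (DT) CPM for 3 counts.

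The antagonist gene Il1rn was denser in neutrophils than in Csf1r cells of both libraries. Neutrophils had 538 CPM in PBS (502 to 576) and 720 in DT (685 to 756), a ratio of 1.34 (1.23 to 1.46). Positive cells made up 48.5% and 50.4%, so the share with a UMI was nearly level. Siglecf+ neutrophils had 649 (529 to 788) and 1275 (1147 to 1414), a ratio of 1.97 (1.57 to 2.47), and the remaining neutrophils 540 and 661 (1.22, 1.12 to 1.35). The PBS value rests on 45 Siglecf+ cells, of which 10 held 64.7% of the UMIs. Within called cells of the neutrophil gate the ratios were lower, at 0.844 (0.696 to 1.02) for male and 0.828 (0.488 to 1.5) for female cells, resting on 177 and 145 male and on 5 and 53 female cells. Most of the 559 PBS and 898 DT neutrophils could not be called, so these ratios need not hold for the whole gate.

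Csf1r cells had Il1rn at 193 (182 to 203) and 199 (188 to 211), a ratio of 1.03 (0.956 to 1.12), with 40.2% and 40.0% of cells positive. Treml4+ or Ace+ cells had 169 and 255 (1.51, 1.29 to 1.76), and C1qa+ C1qb+ cells 221 and 188 (0.851, 0.748 to 0.969). The first of these was 1.20 (0.970 to 1.49) without the 10 top cells. T cells had 10.4 and 11.2, and the B gate 5.59 and 11.0, where 10 cells held 86.7% and 79.4%.

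A 3′ count is taken once per transcript whatever its length, but capture differs between genes, so the ratio of agonist to antagonist UMIs is compared here only between populations. Il1b per Il1rn UMI was 38.1 (35.6 to 40.9) in PBS neutrophils and 28.9 (27.5 to 30.4) in DT neutrophils. In Siglecf+ neutrophils it was 28.3 (23.2 to 34.8) and 16.4 (14.8 to 18.3). Among Csf1r cells it was 4.86 (4.58 to 5.17) and 6.84 (6.45 to 7.27). The values within each sex did not all follow these. Male-called neutrophils had 34.8 (31.2 to 38.9) in PBS and 47.0 (40.3 to 55.1) in DT, the reverse order, and female-called neutrophils had 30.8 (18.8 to 54.3) and 23.1 (19.1 to 28.2). Male-called Csf1r cells had 5.54 (5.10 to 6.02) and 6.49 (5.46 to 7.76), with intervals that overlapped, and female-called Csf1r cells 2.24 (1.61 to 3.15) and 7.22 (6.62 to 7.88).

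The decoy receptor Il1r2 was mainly a neutrophil transcript. Neutrophils had 1292 CPM in PBS (1236 to 1350) and 1563 in DT (1512 to 1615), a ratio of 1.21 (1.14 to 1.28), with 83.9% and 85.6% of cells positive. With Csf3r alone as the gate, cells with Csf3r and Csf1r included, with or without S100a8, the ratio was 1.60 (1.54 to 1.67). Siglecf+ neutrophils had 1794 and 2195, above the remaining neutrophils at 1240 and 1484. Csf1r cells had Il1r2 at 46.9 (41.9 to 52.4) and 68.3 (62.0 to 75.2), a ratio of 1.46 (1.26 to 1.69) that was 1.77 (1.47 to 2.14) without the 10 top cells. C1qa+ C1qb+ cells had 18.6 and 46.1 (2.47, 1.71 to 3.65) and Treml4+ or Ace+ cells 36.7 and 62.3 (1.70, 1.21 to 2.37). The remaining Csf1r cells had the highest level of these subsets, 121 and 133. Male-called Csf1r cells had 56.3 and 35.0 (0.621, 0.428 to 0.880) and female-called cells 21.1 and 59.5 (2.82, 1.46 to 6.26).

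Csf1r cells with Il1r2 were also richer in Il1b and Il1rn. After thinning to 1000 UMIs, Il1b was found in 73.9% of 23 PBS and 72.2% of 54 DT cells with Il1r2, and in 25.6% and 37.0% of cells without it. Il1rn was found in 43.5% and 44.4% of the cells with Il1r2, and in 13.6% and 13.2% of the others.

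In the T gate Il1r2 had 23.6 CPM in PBS (19.8 to 27.9; 136 UMIs) and 47.0 in DT (41.4 to 53.2; 252 UMIs). The ratio was 1.99 (1.61 to 2.48), and 2.47 (1.86 to 3.30) without the 10 top cells. Foxp3+ cells had the highest DT level, 41.2 and 112 (2.73, 1.79 to 4.27), with 11.2% and 19.4% of cells positive, and 10 cells held 90% and 78.0% of the UMIs. Cd8a+ cells had 13.4 and 32.3 (2.40, 1.52 to 3.88) and Cd4+ cells 49.3 and 54.7 (1.11, 0.783 to 1.57). Male-called T cells had 29.6 and 44.7 (1.51, 0.925 to 2.37), and female-called T cells had 1 UMI in 69 PBS cells and 174 UMIs in 509 DT cells. B cells held 25 and 17 UMIs and NK cells 3 and 3.

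Il1rap, the shared signalling chain for interleukin-1, followed the neutrophils with little difference between libraries. They had 136 CPM in PBS (118 to 156) and 147 in DT (132 to 164), a ratio of 1.08 (0.909 to 1.29), with 27.9% and 26.7% of cells positive. The Csf1r gate had 7.57 and 10.6 (1.40, 0.958 to 2.06) and the T gate 4.68 and 6.72 (1.44, 0.847 to 2.46), with intervals that overlapped within each library. B cells held 13 and 10 UMIs and NK cells 7 and 5. Il1r1, the signalling receptor itself, had 41 UMIs in the whole PBS library and 60 in the DT library, of which the T gate held 12 and 19. Its low counts set a limit: 1 or 2 UMIs in neutrophils and 3 to 5 in Csf1r cells allow no comparison.

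The interleukin-18 receptor chains were highest in NK cells. Il18r1, the binding chain, had 307 CPM in PBS (274 to 343) and 262 in DT (230 to 297), a ratio of 0.852 (0.717 to 1.01), with 62.8% and 56.5% of NK cells positive. The T gate had 147 (137 to 157) and 158 (147 to 169), a ratio of 1.08 (0.976 to 1.18). Among T subsets, Trdc+ (gamma delta) cells had 203 and 179, Cd4+ cells 195 and 209, Cd8a+ cells 103 and 132 (1.28, 1.06 to 1.54) and Foxp3+ cells 74.2 and 92.5. Foxp3+ cells were lowest of the 4 in both libraries, but in PBS their interval (55.7 to 96.8) overlapped that of Cd8a+ cells (90.1 to 118). The intervals of Trdc+ and Cd4+ cells overlapped as well. Neutrophils had 22.8 and 16, Csf1r cells 5.20 and 4.50 and B cells 17 and 5 UMIs.

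Il18rap, the signalling partner chain, had 349 CPM in NK cells in PBS (314 to 387) and 367 in DT (329 to 409), a ratio of 1.05 (0.904 to 1.22). Male-called NK cells had 285 and 449 (1.58, 1.16 to 2.13), past the limit for a higher call, and female-called ones 416 in 15 PBS cells and 326 in 83 DT cells (0.783, 0.502 to 1.27). Neutrophils came next, at 203 (181 to 227) and 217 (199 to 238), a ratio of 1.07 (0.928 to 1.24), with 38.3% and 37.0% of cells positive. T cells had 60.0 (53.9 to 66.7) and 76.2 (69.0 to 83.9), a ratio of 1.27 (1.10 to 1.47). The ratio was 1.01 (0.691 to 1.43) in male-called T cells and 3.25 (1.63 to 7.61) in female-called ones, the latter resting on 8 PBS UMIs. Csf1r cells had 8.91 and 10.5, and the B gate held 5 and 8 UMIs. Il18rap per Il18r1 UMI was 8.91 (6.27 to 13.0) and 13.6 (9.70 to 19.7) in neutrophils, 1.14 (0.974 to 1.33) and 1.40 (1.18 to 1.66) in NK cells and 0.409 (0.360 to 0.465) and 0.483 (0.428 to 0.545) in T cells. The 2 neighbouring genes were therefore in different proportion in the 3 lineages in both libraries. T cell markers summed to 48.8 and 130 CPM in the neutrophil gate and NK markers to 17.6 and 34.6, against 5819 and 5631 and 16602 and 16655 in their own gates. These lists include the gate genes Cd3e and Ncr1, which cells of the neutrophil gate lack by rule.

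The cells outside a single gate held a large share of several members. Cells passing both the neutrophil and Csf1r gates numbered 372 in PBS and 450 in DT. By lists that include the gate genes, they carried neutrophil markers (50889 and 47745 CPM) and phagocyte markers (13439 and 10894) together. Il1b was 9701 and 11387 in them (1.17, 1.15 to 1.19), between the levels of the 2 single gates. Of the 7 members with enough UMIs, Il1a alone was higher, at 68.4 (58.5 to 79.6) and 131 (118 to 146), a ratio of 1.92 (1.59 to 2.32), against 4.55% of all genes higher and 3.14% lower. Il1r2 was 576 and 857 (1.49, 1.39 to 1.59) and Il1rn 441 and 549 (1.25, 1.15 to 1.35). Whether these droplets held 1 cell or 2 was not tested.

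Cells with Csf3r but no S100a8 UMI, and outside every gate, numbered 56 in PBS and 147 in DT, a group defined after its values were seen. Il1b stood at 5378 CPM (5061 to 5709) and 10862 (10532 to 11199), a ratio of 2.02 (1.89 to 2.16). Il1r2 was 615 and 1333 (2.17, 1.78 to 2.66) and Il1rn 625 and 1087 (1.74, 1.42 to 2.14). Il1a was 340 (264 to 431) and 323 (269 to 386), and 10 cells held 92.6% and 61.5% of it. These intervals overlap those of Siglecf+ neutrophils. Their median was 2228 UMIs in PBS and 1682 in DT. When Csf3r alone set the neutrophil gate, the Il1b ratio became 1.29, that of Il1a 1.52 (1.37 to 1.70), from 0.897, and that of Il1r2 1.60, from 1.21. That gate also took in cells passing only it and the Csf1r gate, with or without S100a8. These ratios therefore do not rest on the 56 and 147 added cells alone.

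**Figure D5:**
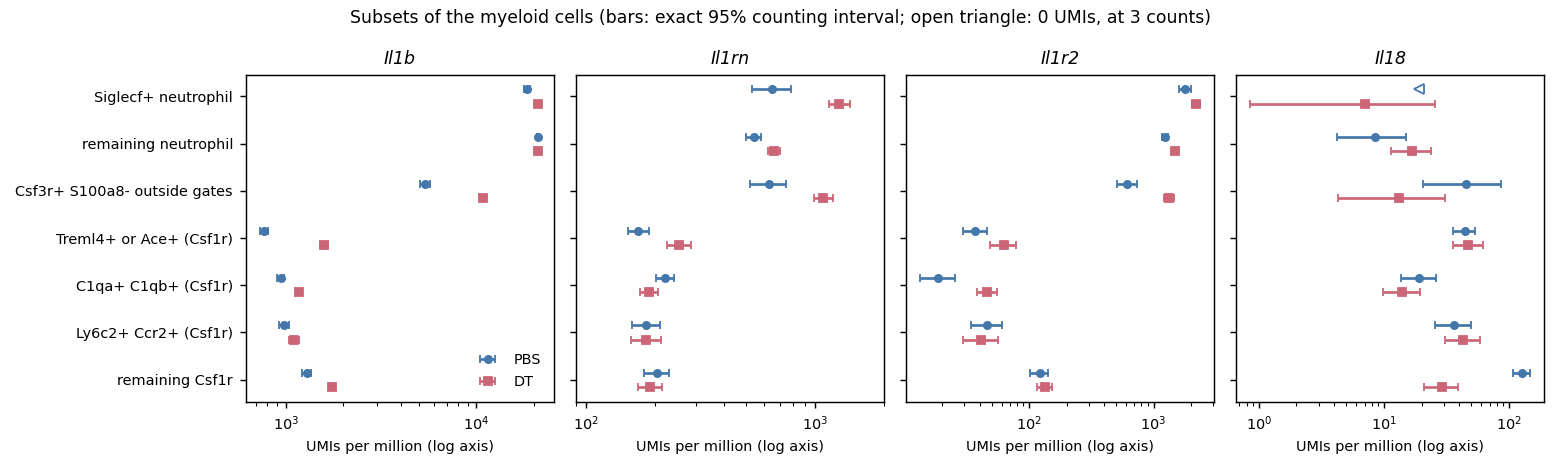
Level of Il1b, Il1rn, Il1r2 and Il18 in CPM (log axis) in subsets of the neutrophil and Csf1r gates and in Csf3r+ S100a8- cells outside the gates, with exact 95% Poisson intervals that cover counting error only. Il1b separates most between libraries in Csf3r+ S100a8- and Treml4+ or Ace+ cells, Il1rn in Siglecf+ neutrophils, and Il18 in the remaining Csf1r cells, where PBS is at 126 and DT at 29.0; the open triangle marks 0 UMIs, drawn at 3 counts.

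The same rule was used, without a split by sex or a change of gate, for 37 other genes of the pathway with a column in both tables. It called 1 higher and 1 lower of 25 in the neutrophil gate, against 4.8% and 2.49% of all genes. In the Csf1r gate it called 5 and 1 of 35, against 3.04% and 3.42%. In the T gate 3 and 0 of 28 were called, against 3.79% and 1.25%. The B gate gave 5 and 0 of 24, against 7.98% and 3.02%, and the NK gate 2 and 1 of 17, against 2.71% and 2.68%. Tnfaip3, a feedback inhibitor of NF-kB, was higher in all 5 gates, at 351 and 558 CPM in neutrophils (1.59, 1.44 to 1.76), 54.3 and 82.0 in Csf1r cells (1.51, 1.32 to 1.73) and 51.3 and 88.9 in T cells (1.73, 1.49 to 2.01). It was 12.8 and 22.3 in B cells (1.73, 1.22 to 2.46) and 36.0 and 72.6 in NK cells (2.02, 1.33 to 3.10). Casp1, the protease that cuts the Il1b and Il18 precursors, was lower in neutrophils, 60.5 and 39.9 (0.660, 0.488 to 0.892), and was 83.6 and 77.7 in Csf1r cells (0.929, 0.821 to 1.05).

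Response genes made up the calls in the Csf1r gate. Cxcl2, a neutrophil-attracting chemokine, had 297 and 531 CPM (1.79, 1.69 to 1.89), and Ptgs2, a prostaglandin synthase, 73.2 and 130 (1.78, 1.59 to 1.99). Il6 had 14 UMIs in 7 PBS cells and 89 UMIs in 16 DT cells, and Cxcl1 24 UMIs in 6 and 57 in 18, so both rested on few cells. Ifng, lower there, had 161 UMIs in 2 PBS cells and 2 UMIs in 2 DT cells. Signalling and processing genes gave 0 calls among 12 and 10 in this gate. With 3.04% of all genes higher and 3.42% lower there, 0 calls among so few genes says little.

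In the T gate, Il1rl1, the interleukin-33 receptor, had 9.89 and 26.5 CPM (2.68, 1.96 to 3.71) and Cxcl2 22.4 and 103 (4.59, 3.78 to 5.60). In NK cells Ifng, which interleukin-18 induces, had 94.4 and 38.5 (0.408, 0.269 to 0.606), and Sigirr, an inhibitory receptor of the family, 37.0 and 68.2 (1.84, 1.21 to 2.84). In the B gate, Traf6, Tab1, Nfkbiz and Cxcl2 were higher besides Tnfaip3, by 2.28, 1.68, 1.77 and 3.49 times, and Traf6 and Tab1 had 74 and 65 UMIs over both libraries. Whether doublets or free RNA gave the Cxcl2 counts of the T and B gates was not tested.

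Genes with the most similar pattern to each member were ranked by Pearson's r of log2(CPM + 5) over 30 points, each a subset of at least 50 cells in 1 library, among 11753 genes. The points share libraries and lineages, so r is a description with no p. Il1b was most like Ptp4a1 (0.98), Dusp1 (0.97) and Tnfaip2 (0.97), and Il1rn like Tnfaip2 (0.97), Ninj1 (0.96) and C5ar1 (0.96). Il1a was most like Ets2 (0.96), Hcar2 (0.95) and Acod1 (0.94), and Il1r2 like Ets2 (0.93), Trem1 (0.92) and Csrnp1 (0.91). Il1rap was most like Gm37347 (0.95), a model inside the Il1r2 span on the same strand, Ceacam18 (0.95) and Cxcr2 (0.94). Il18 was most like Ms4a8a (0.90), Lyz1 (0.90) and Ear2 (0.89). Il18r1 was most like Nkg7 (0.97), Prkcq (0.97) and Gm2682 (0.96), and Il18rap like Wipf1 (0.90), Nbeal2 (0.89) and Hcst (0.89).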

How the data were processed

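The values the authors deposited are log2 of CPM plus 1 for each gene in each cell, as the numbers themselves show. The genome build is mm10, and the submitters' processing notes list STAR, Partek and Seurat without versions. How the authors set strand in counting is not given in the sources used here, so overlapping genes such as Il1b and Il1bos cannot be told apart. UMI counts were recovered from the deposited log2 values as whole multiples of each cell's smallest step. A cell was dropped below 200 genes or 500 UMIs, or when mitochondrial transcripts made up over 10% of it, which removed 51 PBS and 307 DT cells. UMIs were summed per gate and library. Intervals are exact 95% Poisson (levels), Clopper-Pearson (shares) or conditional binomial (ratios), and they cover counting error only. A ratio was called at 1.5-fold with an interval without 1 and at least 50 UMIs over both libraries. Scrublet marked 3 PBS cells and 0 DT cells, too few to have worked, so no doublets were removed in the values reported. Named genes were the 8 members, pathway genes meeting the call, and the 3 genes most like each member, and subsets outside this rule are said to be chosen after their values were seen or have fewer than 50 cells. The members and lists were chosen with earlier results of these data known. The scripts were tested on simulated counts and used Python 3.11.15, numpy 2.4.6, scipy 1.17.1, pandas 2.3.3 and scanpy 1.11.5.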

Additional observations from a re-analysis of the deposited data

Results flagged for a closer look

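For 3 results the ratios of cells called male and of cells called female lay on opposite sides of 1, each with a 95% counting interval that left out 1. Il1b in the neutrophil gate had a DT over PBS ratio of 1.14 in male-called cells and 0.621 in female-called cells, the latter resting on 5 PBS cells. Il1rn in the Csf1r gate had 0.799 and 1.38. Il1r2 in the Csf1r gate had 0.621 and 2.82. The difference between the sexes was not tested, since each library gives 1 value per sex, and how many mice stand behind each sex is not known.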

How the results depend on the processing

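No paired analysis was possible because each group has 1 library. The Il1b ratio of the neutrophil gate (1.01) was 1.17 with overlapping gates, 0.964 with trimmed mean and with median-of-ratios scaling, 0.992 after thinning, 1.14 (male-called) and 0.621 (female-called), and a difference of -0.11 in mean deposited log2 values. With alternatives added after seeing the data, it was 1.13 with double-positive cells counted in. Csf3r alone gave 1.29, with all Csf3r+ cells passing only that gate and the Csf1r gate counted in, with or without S100a8. The ratio was 1.04 without the 10 top cells. The Il1b ratio of the Csf1r gate (1.46) was 1.61 with at least 2 UMIs of each gate gene, 1.60 with cells weighted equally, 1.66 after thinning, 0.936 (male-called) and 4.44 (female-called), 1.38 with Csf3r alone, 1.54 without the 10 top cells, and a log2 difference of 1.13. The count of higher pairs (5) was 10 with overlapping gates and with cells weighted equally, 3 without the 6% highest doublet scores, and 2 with log2 means, free RNA subtracted, male-called cells or a 2-fold limit. The count of lower pairs (2) was 0 with log2 means, thinning or a 2-fold limit, and 1 with free RNA subtracted, at least 100 UMIs or without the 10 top cells. Il1a in the Csf1r gate fell to the other side of 1 in male-called cells, at 0.860 (0.402 to 1.69), with an interval that held 1. The causes were not tested. Of the other values for single pairs, 342 lay within the counting interval of the main value and 83 moved outside it. A value within that interval did not always keep its call. Il1b in the B gate lost its call with trimmed mean scaling, and Il1rap in the Csf1r gate gained one with cells weighted equally. Pairs with few UMIs have wide intervals, so their values stay within them more easily. With 1 library a group, the spread between mice is unknown, and pairs under 50 UMIs allow no call.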
